A study of Gallus gallus with 18 samples.

Results

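The transcription factor NRF2 (gene NFE2L2) and 9 genes of glutathione synthesis and antioxidant defence that are commonly listed as its targets were followed in broiler liver. The members were the probe sets, groups of array probes read as 1 value, whose only symbol in the platform annotation was NFE2L2, SQSTM1, SLC7A11, GCLC, GCLM, GSS, GSR, TXNRD1, NQO1 or MGST1. All 10 were found among the 11528 named genes of the array (18226 probe sets), each with 1 probe set, and none had to be filtered out. The birds were male Cobb 500 broilers fed from the first day of life for 35 d on 1 of 3 diets. The test ingredient was a partially defatted meal of Hermetia illucens larvae (black soldier fly), absent from HI0 and fed at 75 g per kg of diet in HI7.5 and 150 g in HI15, that is 0, 7.5 and 15%. The meal took the place of soybean meal, soybean oil and wheat, and synthetic amino acids balanced all 3 diets, so a diet is a change of several feed components at once. Each diet had 6 liver arrays, out of a trial of 72 birds in cages of 4. The labels do not tie an array to a cage or say that each array is another bird, so the spread behind each p-value is that between arrays, which may be partly technical.

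NRF2 is held in the cytoplasm by KEAP1, which marks it for degradation. Oxidants and electrophiles disable KEAP1, and NRF2 then accumulates and, paired with a small MAF protein, switches on genes with an antioxidant response element, among them those that make and recycle glutathione. This control is known mainly at the level of the NRF2 protein, which the array does not read. The liver is a main site of glutathione synthesis and exports it to the blood. These roles are known mostly from mammals.

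Values are log2 signals, on which 1 unit is a doubling. Array medians lay between 7.23 and 7.31, and correlations between arrays between 0.966 and 0.990. Of 14 hepatocyte markers, 13 were measured, and their mean log2 signal lay between 13.01 and 13.22 on every array. CPS1, one of them, had a mean of 6.21, and the table has no detection values to say whether it was above background. At an adjusted p of 0.05 limma called 0 of 18226 probe sets (0.0%) in each of the 3 diet comparisons, in the F test among the diets and in the slope over the meal share. One array, HI0 replicate 5, had the narrowest spread of signals, and the counts of members and list genes above and below 0 are given without it where they rest on HI0 and moved. Signal levels of different probe sets cannot be set against each other, so levels are compared within 1 gene between arrays; between genes only spreads, differences and correlations are set side by side, and spreads can also depend on the probes.

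No member differed between diets by an adjusted p under 0.05 (limma, adjusted p = 0.999 for all 10 members in all 3 comparisons), and every 95% confidence interval lay within a change of 1.5-fold up or down. Of all probe sets, 91.4, 91.2 and 91.3% had intervals that narrow in HI15 against HI0, HI7.5 against HI0 and HI15 against HI7.5. Over all members and comparisons, the lowest limit of an interval was 0.698 and the highest 1.38 on the linear fold scale. Both were limits of SLC7A11, in HI15 against HI7.5 and in HI7.5 against HI0. NFE2L2 and GCLM, both between HI7.5 and HI15, gave the smallest unadjusted p-values of any member.

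**Figure D1:**
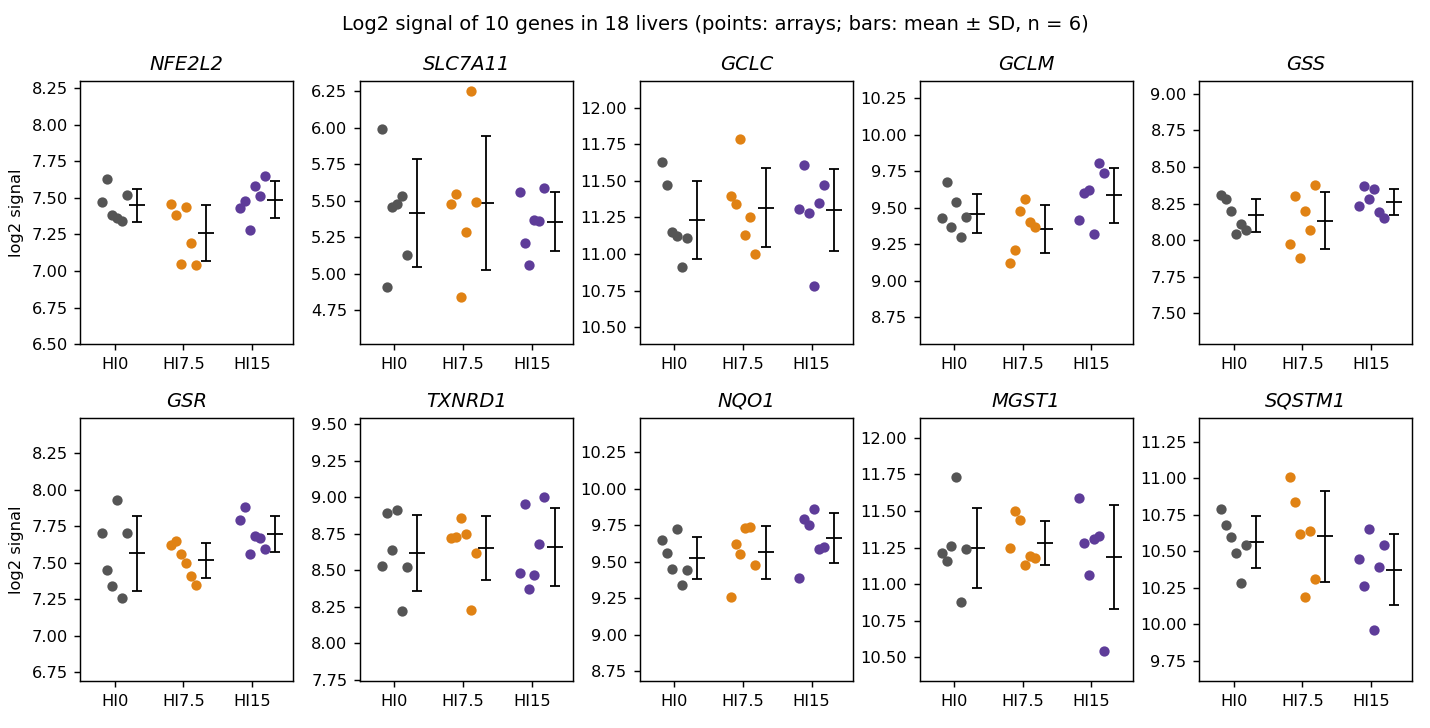
Log2 signal of each member on every array, by diet (6 arrays each), with the diet mean as a bar and 1 panel per gene; each panel has its own vertical axis. The diets overlap in every panel, and the spread within a diet is widest for SLC7A11, from 4.84 to 6.25 in HI7.5.

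NFE2L2 ranged from 7.34 to 7.63 in HI0 (median 7.42), from 7.04 to 7.46 in HI7.5 (median 7.29) and from 7.28 to 7.65 in HI15 (median 7.50). The diets overlapped, but 3 HI7.5 livers, replicates 3, 5 and 6, lay below every liver of the other diets. The interquartile ranges of signals on these arrays were 2.67, 2.58 and 2.22, beside 2.16 to 2.67 over all 18. With diet means removed, the r of NFE2L2 with that range was 0.12. The means were 7.45 ± 0.11 in HI0, 7.26 ± 0.19 in HI7.5 and 7.49 ± 0.13 in HI15 (SD, n = 6 each), lowest in HI7.5 and highest in HI15. Its residual SD, the spread between livers once diet means are removed, was 0.148, which placed it at percentile 17.9 of all genes. By this spread its probe set was among the less variable, with the highest liver 1.53-fold above the lowest.

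SQSTM1, the autophagy receptor p62 that can trap KEAP1, ranged from 10.28 to 10.79 in HI0 (median 10.57), from 10.19 to 11.01 in HI7.5 (median 10.63) and from 9.96 to 10.65 in HI15 (median 10.42). The highest value was an HI7.5 liver and the lowest an HI15 liver, with overlap throughout. Its means of 10.56 ± 0.17, 10.60 ± 0.31 and 10.38 ± 0.24 (SD, n = 6 each) put HI15 last, and the residual SD was 0.248.

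SLC7A11, the transporter that brings cystine into the cell as raw material for glutathione, had the largest residual SD of the members. It ranged from 4.91 to 5.99 in HI0 (median 5.47), from 4.84 to 6.25 in HI7.5 (median 5.48) and from 5.06 to 5.59 in HI15 (median 5.37). Both its lowest and its highest liver, 2.66-fold apart, were on HI7.5. The residual SD of 0.359 stood at percentile 93.1 of all genes, and at percentile 93.6 of the 1324 genes within 0.5 of its mean level. The diet means, 5.42 ± 0.37, 5.48 ± 0.46 and 5.36 ± 0.20 (SD, n = 6 each), were close beside that spread. Without detection values it is not known how much of this signal was above background.

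Glutamate-cysteine ligase, the rate-limiting enzyme of glutathione synthesis, joins a catalytic subunit, GCLC, to a modifier subunit, GCLM. GCLC ranged from 10.91 to 11.63 in HI0 (median 11.13), from 11.00 to 11.79 in HI7.5 (median 11.30) and from 10.78 to 11.61 in HI15 (median 11.33). The 3 diets covered nearly the same span, and the means of 11.23 ± 0.27, 11.32 ± 0.27 and 11.30 ± 0.28 (SD, n = 6 each) lay within 1 SD of each other. GCLM ranged from 9.30 to 9.68 in HI0 (median 9.44), from 9.12 to 9.56 in HI7.5 (median 9.38) and from 9.32 to 9.81 in HI15 (median 9.61). Its lowest 2 livers were on HI7.5 and its highest 2 on HI15, with means of 9.46 ± 0.13, 9.36 ± 0.17 and 9.58 ± 0.19 (SD, n = 6 each). The residual SDs were 0.273 for GCLC and 0.163 for GCLM, at percentiles 78.8 and 26.2 of all genes. GSS, the synthetase of the final step, was the least variable member, with a residual SD of 0.139 at percentile 13.6. It ranged from 8.04 to 8.31 in HI0 (median 8.16), from 7.88 to 8.38 in HI7.5 (median 8.13) and from 8.15 to 8.37 in HI15 (median 8.26), so that HI7.5 held both its lowest and its highest liver.

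GSR, which reduces oxidised glutathione, ranged from 7.26 to 7.93 in HI0 (median 7.58), from 7.35 to 7.65 in HI7.5 (median 7.53) and from 7.56 to 7.88 in HI15 (median 7.68). HI0 spanned more than the other diets, and its lowest and highest livers were the lowest and highest of all 18. The means were 7.56 ± 0.26, 7.51 ± 0.12 and 7.70 ± 0.12 (SD, n = 6 each). TXNRD1, the cytosolic thioredoxin reductase of the parallel thiol system, ranged from 8.22 to 8.91 in HI0 (median 8.59), from 8.23 to 8.86 in HI7.5 (median 8.72) and from 8.37 to 9.0 in HI15 (median 8.58). Its means of 8.62 ± 0.26, 8.65 ± 0.22 and 8.66 ± 0.27 (SD, n = 6 each) were the closest together of any member. The residual SD of TXNRD1, 0.249, stood at percentile 82.2 of the 2239 genes of like level.

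NQO1, a quinone reductase often read as a marker of NRF2 activity, ranged from 9.34 to 9.72 in HI0 (median 9.51), from 9.26 to 9.74 in HI7.5 (median 9.59) and from 9.39 to 9.86 in HI15 (median 9.68). Its means of 9.53 ± 0.14, 9.56 ± 0.18 and 9.66 ± 0.17 (SD, n = 6 each) stood in the order of the meal share, as did those of TXNRD1. The NQO1 step from HI0 to HI7.5 was only 0.04 ± 0.10 (SE; limma, unadjusted p = 0.721). With quantile normalization this step was -0.0088, and without HI0 replicate 5 it was -0.0007, so the order was lost in both. MGST1, a membrane-bound glutathione transferase, ranged from 10.88 to 11.73 in HI0 (median 11.23), from 11.13 to 11.50 in HI7.5 (median 11.22) and from 10.54 to 11.59 in HI15 (median 11.30). The lowest MGST1 value belonged to HI15 replicate 6, which was 0.64 below its diet mean. Its residual SD was 0.275, at percentile 79.1 of all genes.

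Between HI15 and HI0, the full meal share against none, 7 members were higher and 3 lower in HI15, by small amounts. The median difference of the members was 0.05, beside -0.003 over all probe sets, of which 48.4% were above 0. NQO1 was 0.14 ± 0.10 (SE) higher (limma, unadjusted p = 0.193, adjusted p = 0.999), with 5 of 6 HI15 livers above the HI0 mean. SQSTM1 was lower, at -0.19 ± 0.14 (unadjusted p = 0.185, adjusted p = 0.999), with 1 of 6 HI15 livers above the HI0 mean. GSR (0.13 ± 0.11), GCLM (0.12 ± 0.10) and GSS (0.09 ± 0.09) were on the higher side, and NFE2L2 itself differed by 0.04 ± 0.09, with a 95% interval from -0.16 to 0.24. At an unadjusted p under 0.05 the array gave 573 probe sets, 3.14% of all, and 0 of the 10 members. Without HI0 replicate 5, 6 members were higher and 4 lower, with a median of 0.01, beside 5713 of all 11528 genes higher.

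Between HI7.5 and HI0, NFE2L2 was the member with the largest difference, at -0.19 ± 0.09 (SE), with a 95% interval from -0.39 to 0.01. Only 1 of 6 HI7.5 livers lay above the HI0 mean, but the unadjusted p was 0.0581 and the adjusted p 0.999 (limma), and the exact permutation p was 0.0779 (two-sided, n = 6 each). GCLM was lower by less, at -0.10 ± 0.10 (unadjusted p = 0.316). The other 8 members differed by at most 0.09, with 6 members higher and 4 lower in all. Their median difference was 0.03, beside -0.01 over all probe sets, of which 46.0% were above 0. No member had an unadjusted p under 0.05, against 565 probe sets, 3.1% of all. Without HI0 replicate 5, 2 members were higher and 8 lower, beside 5550 of all 11528 genes higher. The member median was then -0.04, and the NFE2L2 difference was -0.21 (limma, unadjusted p = 0.0467). Over all 12 omissions of 1 array, the NFE2L2 difference ran from -0.23 to -0.15, with an unadjusted limma p under 0.05 in 4. The difference was -0.15 without HI7.5 replicate 3 (limma, unadjusted p = 0.137) and -0.15 without HI7.5 replicate 6 (limma, unadjusted p = 0.1415). Over 8 other settings it ran from -0.20 to -0.14, with p under 0.05 in 2.

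Between HI15 and HI7.5, NFE2L2 and GCLM were higher in HI15, as were GSR and GSS by less. NFE2L2 differed by 0.23 ± 0.09 (SE; 95% interval 0.03 to 0.43; limma, unadjusted p = 0.0254, adjusted p = 0.999), and all 6 HI15 livers were above the HI7.5 mean. GCLM differed by 0.23 ± 0.10 (95% interval 0.02 to 0.44; unadjusted p = 0.0343, adjusted p = 0.999), with 5 of 6 livers above. GSR differed by 0.18 ± 0.11 and GSS by 0.13 ± 0.09, with 6 of 6 HI15 livers above the HI7.5 mean for each, at unadjusted p-values of 0.105 and 0.174. Exact permutation tests over the livers of both diets gave two-sided p = 0.0411 for NFE2L2, 0.0541 for GCLM and 0.0346 for GSR (n = 6 each). For the other members the same tests gave p from 0.182 (GSS) to 0.974 (TXNRD1). None of these permutation p-values is adjusted. SQSTM1 pointed the other way, at -0.23 ± 0.14 (unadjusted p = 0.114), with 1 of 6 HI15 livers above the HI7.5 mean. Of the 10 members, 2 had an unadjusted p under 0.05, beside 576 probe sets, 3.16% of all. The member median was 0.05 against 0.005 over all probe sets, of which 51.9% were above 0. Of the members, 6 were higher and 4 lower.

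In the same comparison, all 7 measured markers of stellate cells and fibroblasts (of 10 listed) were higher in HI15, by a median of 0.29. Their mean log2 signal ranged from 8.14 to 8.81 in HI7.5, from 8.45 to 9.21 in HI15 and from 8.30 to 8.99 in HI0, and in HI15 against HI0 they were also all higher, by a median of 0.20. Their part in the NFE2L2 and GCLM values was not tested. In whole liver, fewer cells of a type and less RNA per cell cannot be told apart. The 3 comparisons share their HI0, HI7.5 or HI15 livers, so that the low HI7.5 values of NFE2L2 enter 2 of them. Of 6 measured red blood cell markers (12 listed), 5 were higher in HI15 than in HI0 (median 0.24) and in HI7.5 than in HI0 (median 0.21). Without HI0 replicate 5 the medians were 0.35 and 0.36. Of 4 measured macrophage markers (9 listed), 0 stood above 0 in HI15 against HI7.5 (median -0.13) and 4 were higher in HI7.5 than in HI0 (median 0.14). Their mean log2 signal ranged from 9.75 to 10.54 in HI0, from 9.52 to 10.58 in HI7.5 and from 9.82 to 10.24 in HI15. Of 7 measured pancreas and gut markers (12 listed), 6 were lower in HI15 than in HI0 (median -0.14) and 7 in HI7.5 than in HI0 (median -0.098). Without HI0 replicate 5, 6 were lower in each, with medians of -0.063 and -0.067. Of 2 measured heterophil markers (8 listed), 2 were lower in HI15 than in HI0 (median -0.22) and 2 in HI7.5 than in HI0 (median -0.20). Without HI0 replicate 5, 2 and 1 were lower. Of 13 hepatocyte markers, 8 were higher in HI15 than in HI0 (median 0.04) and 12 in HI7.5 than in HI0 (median 0.05). Without HI0 replicate 5, 10 were higher in each. Of 8 measured lymphocyte markers (9 listed), 5 were lower in HI15 than in HI0 (median -0.08) and 5 in HI7.5 than in HI0 (median -0.07). Without HI0 replicate 5, 6 of the 8 were lower in each. Bile duct and endothelium markers, 6 measured of 8 listed each, had 4 and 3 higher in HI15 than in HI0. In HI7.5 against HI0, 3 and 2 of them were higher. Without HI0 replicate 5, 4 of 6 were higher in each. The part of these lists in the member values was not tested.

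**Figure D2:**
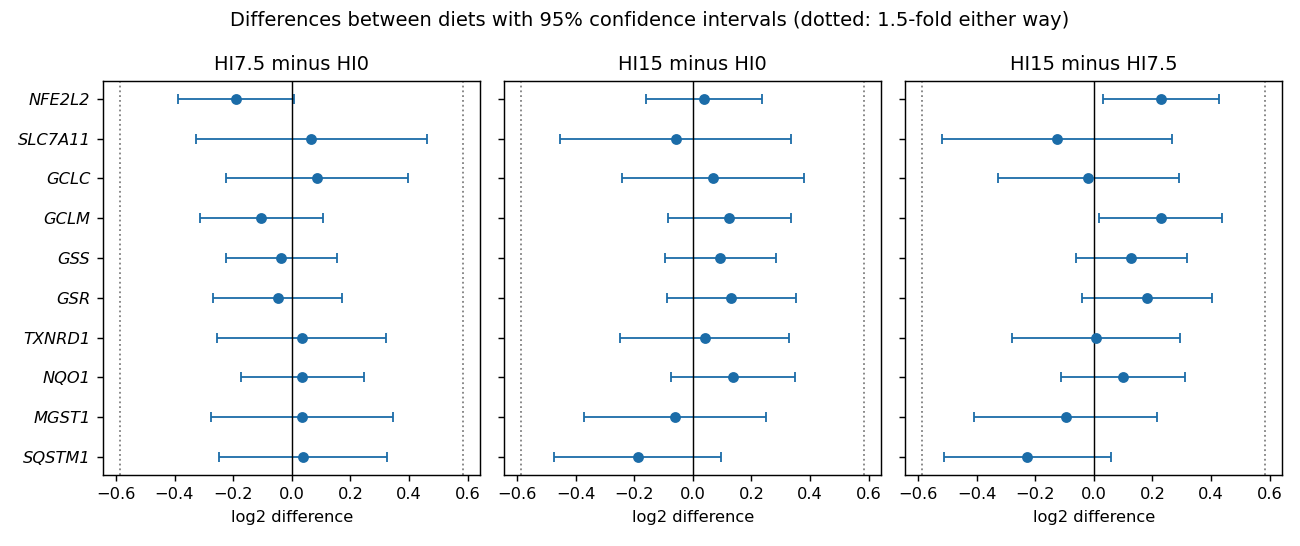
Log2 difference of each member in the 3 diet comparisons, with its 95% confidence interval from limma (6 arrays a diet). Only the NFE2L2 and GCLM intervals of HI15 against HI7.5, from 0.03 to 0.43 and from 0.02 to 0.44, miss 0, before any adjustment over the array.

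Across all 3 diets at once, the F test gave unadjusted p-values of 0.0557 for NFE2L2 and 0.10 for GCLM and of 0.234 to 0.953 for the other members, so that 0 of 10 passed 0.05 beside 523 probe sets, 2.87% of all. As a slope per 10 percentage points of meal, NQO1 had 0.09 ± 0.07 (SE) and SQSTM1 -0.13 ± 0.09. The smallest unadjusted p of any member's slope was 0.182, and 0 of 10 passed 0.05 beside 592 probe sets, 3.25% of all. NFE2L2, with its lowest mean on the middle diet, did not follow the meal share.

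The wider pathway was read from 4 lists, and 0 of their measured genes were called in any comparison. Among 22 measured genes (of 32 listed) that spend glutathione, peroxidases, transferases, glyoxalases and glutaredoxins, 16 were higher and 6 lower in HI15 than in HI0, with a median difference of 0.09. At an unadjusted p under 0.05, 2 of them were higher and 0 lower, beside 1.34% of all probe sets higher and 1.8% lower. Without HI0 replicate 5 the split was 15 to 7, with a median of 0.06. GPX4, the peroxidase of lipid hydroperoxides, ranged from 10.67 to 11.37 in HI0 (median 10.88) and from 10.89 to 11.71 in HI15 (median 11.16), and its difference was 0.32 ± 0.13 (limma, unadjusted p = 0.0201, adjusted p = 0.999). GSTA4, a transferase for the lipid peroxidation product 4-hydroxynonenal, ranged from 9.81 to 10.76 in HI0 (median 10.49) and from 10.34 to 11.18 in HI15 (median 10.91), a difference of 0.44 ± 0.20 (unadjusted p = 0.0362). Both overlapped between the diets. On the lower side stood LTC4S, the leukotriene C4 synthase, at -0.20, and the secreted peroxidase GPX3 at -0.18, neither of which had an unadjusted p under 0.05. In HI7.5 against HI0, 13 were higher and 9 lower (median 0.02). One of them, the transferase MGST3 at 0.30 ± 0.14 (unadjusted p = 0.0460), was higher at an unadjusted p under 0.05, beside 1.03% of all probe sets, and 0 were lower, beside 2.07%. Without HI0 replicate 5 the split was 12 to 10, with a median of 0.006. The transferase MGST2 stood at -0.16, with the smallest p among the lower genes.

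Genes that break down glutathione or supply its amino acids, 26 measured of 36 listed, split evenly in HI15 against HI0, with 13 higher and 13 lower and a median of 0.02, or 14 and 12 without HI0 replicate 5. Only ANPEP, the surface aminopeptidase that completes extracellular glutathione breakdown, had an unadjusted p under 0.05, at 0.25 ± 0.10 (limma, unadjusted p = 0.0281, adjusted p = 0.999), and 1 of 26 is near the 3.14% of all probe sets at that threshold. GCAT, of threonine breakdown, stood at 0.17, and the amino acid carriers SLC7A9 and SLC1A1 at -0.20 and -0.22. In HI7.5 against HI0, 12 were higher and 14 lower (median -0.01), or 13 and 13 without HI0 replicate 5 (median 0.0075). CHAC1, which degrades glutathione inside the cell, had the largest positive difference that was named, 0.55 ± 0.29 (unadjusted p = 0.0776). The CHAC1 values ranged from 7.46 to 9.97 in HI7.5 (median 7.89) against 7.31 to 7.97 in HI0 (median 7.67), so 1 liver far above the others enters that mean. SLC3A1, the partner of SLC7A9, stood at -0.29.

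Of 23 listed regulators of NRF2, 13 were measured, and KEAP1 is not analysed here. They split 6 higher and 7 lower in HI15 against HI0 (median -0.003), 10 higher and 3 lower in HI7.5 against HI0 (median 0.05) and 1 higher and 12 lower in HI15 against HI7.5 (median -0.06), with 0 at an unadjusted p under 0.05 in each, beside 3.14, 3.1 and 3.16% of all probe sets. Of all probe sets, 48.4, 46.0 and 51.9% were above 0 in these 3 comparisons, in that order. Without HI0 replicate 5 the splits against HI0 were the same, with medians of -0.008 for HI15 and 0.016 for HI7.5. In HI15 against HI0, PGAM5, a phosphatase bound by KEAP1, stood at 0.13, the KEAP1-binding PALB2 at 0.11, the stress factor ATF4 at -0.22 (unadjusted p = 0.0768) and the NRF2 partner MAFG at -0.14. In HI7.5 against HI0, PGAM5 stood at 0.16 and MAFG at -0.07.

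A further list held 47 genes, other NRF2 targets and relatives of them such as HMOX2 and TXNRD2, and 29 were measured. In HI15 against HI0, 23 were higher and 6 lower, with a median of 0.07 and 1 at an unadjusted p under 0.05. That 1 of 29 is near the 3.14% of all probe sets at this threshold. The gene was TXN2, the mitochondrial thioredoxin, at 0.19 ± 0.09 (limma, unadjusted p = 0.0368, adjusted p = 0.999). The other thioredoxin of the list, TXN, was not measured. Without HI0 replicate 5 the split was 17 to 12, with a median of 0.03. The ferritin heavy chain FTH1 stood at 0.13, the cytosolic superoxide dismutase SOD1 at -0.25 ± 0.12 (limma, unadjusted p = 0.0514) and the iron exporter SLC40A1 at -0.14. In HI7.5 against HI0, 19 were higher and 10 lower (median 0.03), or 15 and 14 without HI0 replicate 5 (median 0.003). Of these 29, 0 had an unadjusted p under 0.05, beside 3.1% of all probe sets. The mitochondrial superoxide dismutase SOD2 stood at 0.14 and the aldehyde reductase AKR7A2 at -0.23 (limma, unadjusted p = 0.0522). In HI15 against HI7.5, 18 of the 29, 14 of the 26 turnover genes and 17 of the 22 genes that use glutathione were higher, with 1 higher at an unadjusted p under 0.05 in each list, beside 1.99% of all probe sets, and 0 lower, beside 1.17%.

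For every member, the livers of each diet spanned more than the 3 diet means did. Means vary less than the single values they average, so this order is not read as a trait of the members. The share of all genes with the same order is not given here. In HI0, replicate 5 had the lowest value of its diet for 8 of the 10 members, all but GSS and SLC7A11, and lay below its diet mean for 9. Its median deviation was -0.24, and the farthest of its members from the HI0 mean was TXNRD1, at -0.40. The same array was the lowest of HI0 for 26.3% of all genes. It was the lowest for 37.9% of the 6546 genes above 7.27, the median level of all probe sets, where 9 of the 10 members lie. It also had the narrowest range of signals of any array, with an interquartile range of 2.16 beside 2.16 to 2.67 over all 18. Its part in the low member values was not tested. Without it, the HI15 against HI0 difference went from 0.07 to 0.004 for GCLC, from 0.13 to 0.07 for GSR, from 0.04 to -0.04 for TXNRD1 and from -0.19 to -0.24 for SQSTM1.

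Other livers were high or low for some members and not for others. HI0 replicate 1 was the highest of its diet for GCLC, GSS, SQSTM1 and SLC7A11, and HI0 replicate 4 for GSR, NQO1, TXNRD1 and MGST1. Of all genes, 15.2 and 19.3% were highest in HI0 on these 2 arrays. HI7.5 replicate 2 was above its diet mean for 9 members, and a share over all genes is not given here. HI15 replicate 6 was the highest of its diet for NFE2L2, TXNRD1 and SLC7A11 and the lowest for GSS and MGST1. HI15 replicate 4 was the lowest for GCLC, at a deviation of -0.52, and for GCLM and SQSTM1, and the highest for NQO1. Of all genes, HI15 replicate 6 was the highest of its diet for 19.3% and the lowest for 17.6%. For HI15 replicate 4 these shares were 20.3 and 17.2%. By Dixon's criterion no highest or lowest liver stood apart in any of the 30 groups of 6 values.

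**Figure D3:**
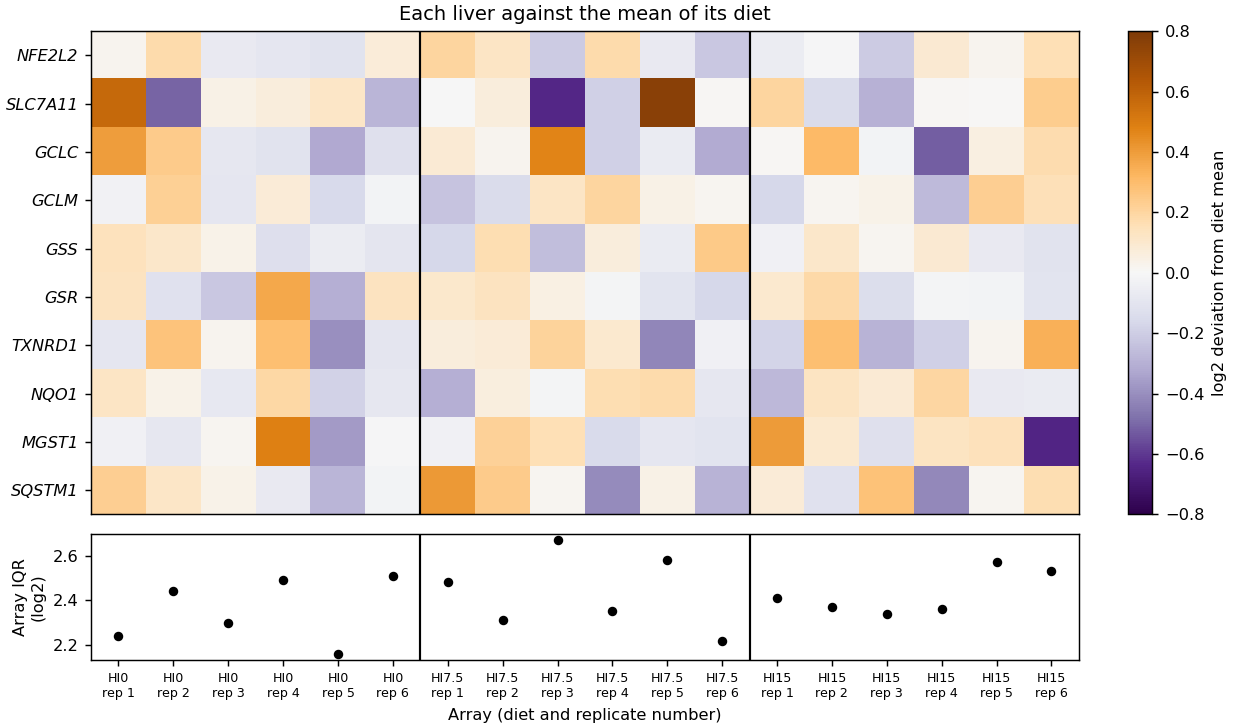
Deviation of each member (rows) from its diet mean on each of the 18 arrays (columns, by diet), as a log2 difference on a colour scale. HI0 replicate 5 is below the mean for 9 of 10 members. By that count HI0 replicate 6 comes next, with 8, though its median deviation is only -0.055.

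With diet means removed, few members varied together from liver to liver. Over the 45 pairs the median Pearson r was 0.06, beside 0.0005 over all pairs of genes on the array, with 27 pairs above 0 and 18 below and a range from -0.43 to 0.67. Of the pairs, 3 were above 0.5, while 8.47% of all gene pairs were. After adjustment over the 45 pairs, 0 had a permutation p under 0.05 by Pearson or Spearman.

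The closest pair was GSR and MGST1, with r = 0.67 and rho = 0.60 over 18 livers (permutation p = 0.0017, adjusted p = 0.0765; for rho, p = 0.00921, adjusted p = 0.244). Within HI0, HI7.5 and HI15 r was 0.82, 0.69 and 0.62. It was 0.46 or 0.62 without the 2 livers farthest from the GSR or the MGST1 median. GCLC and SQSTM1 followed with r = 0.62 and rho = 0.61 (permutation p = 0.0108, adjusted p = 0.243), r = 0.94, 0.51 and 0.60 within the diets and 0.60 or 0.47 without the 2 livers farthest from the GCLC or the SQSTM1 median. GCLC and TXNRD1 had r = 0.50 and rho = 0.48 (permutation p = 0.0461, adjusted p = 0.691). With the array's interquartile range removed, or after quantile normalization, r was 0.42 or 0.44 for GCLC and TXNRD1. It was then 0.65 or 0.61 for GSR and MGST1 and 0.58 in each for GCLC and SQSTM1. For GSS and NQO1, at r = 0.32 before, it was 0.50 in each.

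**Figure D4:**
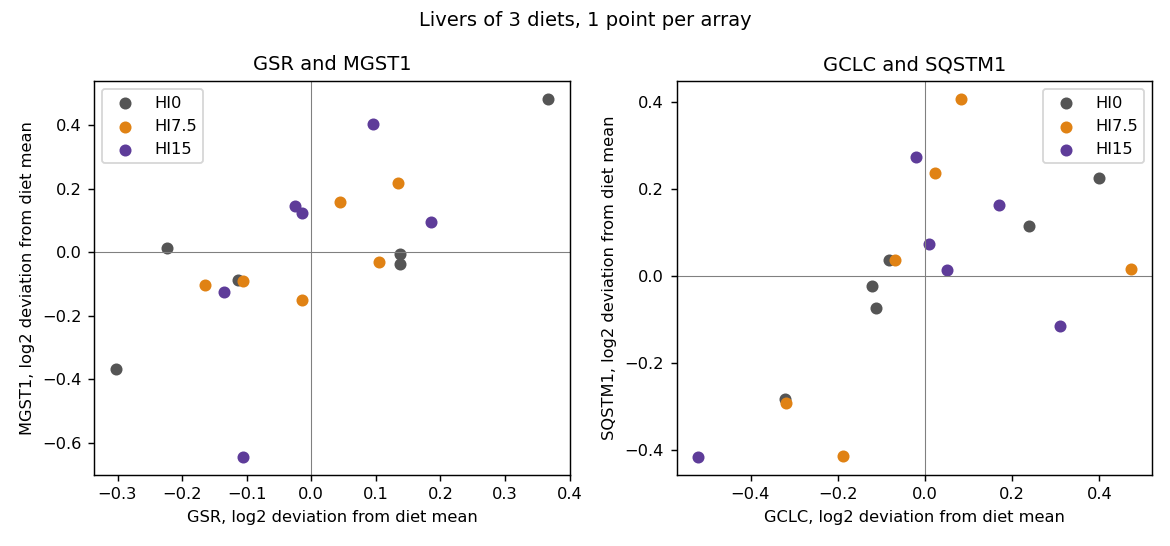
Deviations from the diet mean (log2) for 2 pairs of members, 1 point per liver, coloured by diet: GSR against MGST1 (r = 0.67) and GCLC against SQSTM1 (r = 0.62). The 2 values of r are close.

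The subunits of glutamate-cysteine ligase, GCLC and GCLM, had r = 0.39 and rho = 0.32 (permutation p = 0.139, adjusted p = 0.894), with r = 0.52, -0.04 and 0.68 within the diets and 0.14 or 0.28 without the 2 livers farthest from the GCLC or the GCLM median. With the array's interquartile range removed, or after quantile normalization, their r was 0.25 or 0.23. NFE2L2 mRNA was not closely matched by any of the listed targets. Its highest correlation was with TXNRD1, at r = 0.35 and rho = 0.33 (permutation p = 0.163, adjusted p = 0.919), and its median r with the other 9 was 0.06, from -0.20 to 0.35. The lowest pair was TXNRD1 and SLC7A11, with r = -0.43 and rho = -0.26 (permutation p = 0.0870, adjusted p = 0.783). Within HI0, HI7.5 and HI15 its r was -0.39, -0.94 and 0.31. It was -0.19 or -0.14 without the 2 livers farthest from the TXNRD1 or the SLC7A11 median.

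**Figure D5:**
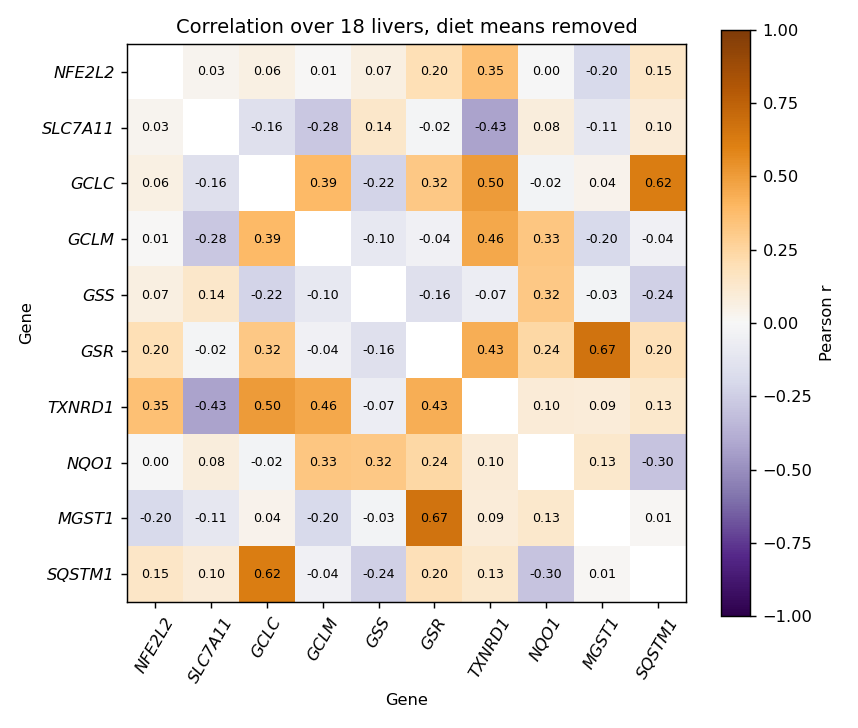
Pearson r between members over 18 livers after removing diet means, as a matrix of 10 genes by 10 genes; colour and printed value give r. GSR with MGST1 (0.67) and GCLC with SQSTM1 (0.62) stand out, while the NFE2L2 row stays between -0.20 and 0.35.

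GSS followed the width of the array's own distribution. Its r with the interquartile range of the array was -0.75 and rho -0.74 with diet means removed (permutation p = 0.0031 and 0.00411, adjusted over the 10 members 0.031 and 0.0411), and r was -0.66 without the 2 arrays farthest from the median range. Within HI0, HI7.5 and HI15 it was -0.37, -0.94 and -0.82. Of all genes, 9.66% had a lower r, and the median size of r was 0.475, so many genes share this relation. No other member passed 0.05 after adjustment, with GCLM at r = 0.45 and GCLC at 0.41. With the range as a covariate, chosen after seeing the data, the GSS difference of HI15 against HI0 was 0.15 (unadjusted p = 0.0445).

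Among the other 11518 genes, those whose pattern over the 18 livers was closest to NFE2L2, by Pearson r with diet means removed, were MIR1580 (0.76), LOC419677 (0.71), TMEM246 (0.69), AASDHPPT (0.68) and LOC425238 (0.67). The first 2 for each further member were MTX2 (0.85) and ISOC1 (0.83) for GCLC, NAA50 (0.82) and NT5C2 (0.77) for GCLM, COLQ (0.87) and AVP (0.86) for GSS, and PNPLA2 (0.89) and LY6E (0.88) for GSR. For TXNRD1 they were TAMM41 (0.71) and C11orf49 (0.70), for NQO1 LOC424109 (0.92) and TBRG4 (0.90), for MGST1 ADSL (0.83) and RGN (0.82), for SQSTM1 PSME4 (0.88) and JADE1 (0.86), and for SLC7A11 SLC7A3 (0.80) and SH3GL1 (0.78). These are the highest of many values and are given as a description. Among the same 11518 genes, the closest other member ranked from 59 (GSR for MGST1) to 3678 (GSS for SLC7A11). TXNRD1 was at rank 734 for NFE2L2 and SQSTM1 at rank 208 for GCLC.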

How the data were processed

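Liver RNA was labelled with biotin and measured on 18 Affymetrix arrays. The authors deposited 1 log2 signal for each probe set and array. The submitters' processing notes name RMA and Affymetrix Expression Console 1.4 without saying how they were set. RMA as usually run normalizes between arrays, but the interquartile ranges of the deposited arrays still ran from 2.16 to 2.67. No detection values were in the table, and no probe set was filtered out. Of 18226 probe sets, 12300 carry 1 gene symbol in the platform annotation, 256 several, and 5670 are unnamed here. All 10 member symbols are current in the RefSeq table of GRCg7b. The number of arrays limits the precision.

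One mean per diet was fitted to every probe set with limma 3.58.1 in R 4.3.3 (lmFit, eBayes, 15 residual degrees of freedom). Two-sided p-values were adjusted over the whole table (Benjamini-Hochberg), with calls at 0.05. Correlations between livers used 100000 permutations within diets. The code was tested on simulated data. As alternatives the fits were repeated with array weights, quantile normalization, array medians subtracted, a trended robust prior, only the brighter probe sets, only the diets compared, a replicate block, the array's interquartile range as a covariate (added after seeing the data) and omission of each array.

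The members and gene lists were chosen with earlier results of these data known. Named are all members, in each pathway list the 2 genes of smallest p in each direction for HI15 against HI0 and 1 for HI7.5 against HI0, and the closest 5 genes to NFE2L2 and 2 to each other member; genes called out beyond this were chosen after their values were seen.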

Additional observations from a re-analysis of the deposited data

How the results depend on the processing

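In every alternative that was run, limma called 0 probe sets at an adjusted p of 0.05 in each comparison, and the smallest adjusted p was 0.171. In the main fit the number of members at an unadjusted p under 0.05 was 0 in HI15 against HI0, 0 in HI7.5 against HI0 and 2 in HI15 against HI7.5. Beside these stood 3.14, 3.1 and 3.16% of all probe sets. The share of all probe sets in the alternative fits is not given here, so a moved count is not read as a result about the members. With the interquartile range as a covariate the number of members was 1 in each of the first 2 comparisons. With only the brighter probe sets it was 1 in HI7.5 against HI0. In HI15 against HI7.5 it was 1 with array weights (limma, NFE2L2 0.17, unadjusted p = 0.0781) and 1 with the replicate block (limma, GCLM unadjusted p = 0.0570). Omitting single arrays gave 0 to 1 in HI7.5 against HI0 and 0 to 3 in HI15 against HI7.5, with 0 without HI15 replicate 6 and 3 without HI7.5 replicate 4. In that comparison NFE2L2 ran from 0.18 to 0.27 and GCLM from 0.18 to 0.28 over the omissions, with p under 0.05 in 8 and 6 of 12. The median r between members ran from -0.022 to 0.094 over the omissions.

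Of the 30 member differences, 15 changed sign in some omission and 7 in another alternative. The cause was not tested. With the interquartile range as a covariate, TXNRD1 became -0.0033 in HI15 against HI0, -0.013 in HI7.5 against HI0 and -0.0019 as a slope, and in HI7.5 against HI0 GSS became 0.023 and SQSTM1 -0.0006. Quantile normalization gave NQO1 -0.0088 in HI7.5 against HI0, and array weights gave GCLC 0.037 and TXNRD1 -0.019 in HI15 against HI7.5. Over the omissions, HI15 against HI0 ran from -0.040 to 0.098 for TXNRD1, -0.14 to 0.067 for MGST1 and -0.16 to 0.056 for SLC7A11. HI7.5 against HI0 ran from -0.0077 to 0.17 for GCLC, -0.11 to 0.025 for GSR, -0.084 to 0.016 for GSS, -0.0007 to 0.097 for NQO1, -0.046 to 0.12 for TXNRD1, -0.038 to 0.13 for MGST1, -0.043 to 0.12 for SQSTM1 and -0.087 to 0.20 for SLC7A11. HI15 against HI7.5 ran from -0.082 to 0.086 for GCLC, -0.078 to 0.064 for TXNRD1, -0.18 to 0.032 for MGST1 and -0.25 to 0.028 for SLC7A11. Slopes ran from -0.0043 to 0.058 for NFE2L2, -0.025 to 0.064 for TXNRD1, -0.091 to 0.045 for MGST1 and -0.11 to 0.031 for SLC7A11.

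The replicate block took samples whose title's last numbers fall in the same run of 6. Their deviations did not go together (18 pairs, median r -0.08; other 90 pairs, 0.03), so the numbers are not read as pairs. Every member had 1 probe set, so another probe set could not be compared.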
